A study of Mus musculus with 2 samples.

Results

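The 6 genes described here act on heme after an erythrocyte has been taken apart: Hmox1, Blvra, Blvrb, Slc48a1, Flvcr1 and Abcg2. They were taken by symbol from the 26124 genes of the count matrices, each symbol had 1 row, and all 6 genes were found. Their UMIs (unique molecular identifiers, 1 for each captured mRNA molecule) were measured by droplet single-cell RNA-seq with 3′ chemistry in spleen cells enriched with anti-F4/80 beads after lysis of erythrocytes. There were 2 libraries, each from the spleen of 1 untreated mouse aged 12 to 16 weeks, so no comparison between the libraries has a replicate. Both mice were homozygous for Hbatm1Paz, which removes the mouse α-globin genes, and both carried Tg(HBA-HBBs)41Paz, a transgene of human α-globin and sickle β-globin. The mouse called SCD, a model of sickle cell disease, was homozygous for this transgene and for the mouse β-globin deletion Hbbtm1Tow. The mouse called wild-type was a non-sickling control, heterozygous for Hbbtm1Tow and hemizygous for the transgene, and so was not free of the sickle transgene.

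Red pulp macrophages (RPM) of the spleen engulf aged and damaged erythrocytes. Heme freed in the phagolysosome crosses into the cytosol through SLC48A1, also called HRG1. Heme oxygenase-1, the product of Hmox1, opens the heme ring and releases iron, carbon monoxide and biliverdin, which the biliverdin reductase encoded by Blvra reduces further. Blvrb encodes a reductase of other biliverdin isomers and of flavins. FLVCR1 and ABCG2 are transporters of the cell surface that have been described as exporters of heme, and ABCG2 also of porphyrins. Erythroblasts, which make heme in large amounts, mature in erythroblastic islands (EBI) around a central macrophage, so that a droplet can hold RNA of both partners.

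The wild-type-labelled and SCD-labelled libraries held 145953464 and 73986356 UMIs, and 19418 and 12279 cells passed the filters with a median of 4116 and 4571 UMIs. The libraries shared 107 cell barcodes, of which 65 were among kept cells of both. Mouse globin genes went against the labelled genotypes. Hbb-bs in erythroid-like cells was at 151 CPM (UMIs of the gene per 1e+06 UMIs of the group) in the wild-type-labelled library and at 47527 CPM in the SCD-labelled library, whose mouse should carry no intact copy. Hba-a1, a gene that Hbatm1Paz removes in both mice, reached 27326 and 30553 CPM in these erythroid-like cells. The libraries are therefore named by their labels throughout, and each direction between them rests on those labels. Whether the labels are crossed was not tested, and every direction between the libraries would turn if they were. RPM-like clusters, rich in macrophage markers alone, held 4631 and 1636 cells, EBI-like clusters, rich in macrophage and erythroid markers, 6678 and 970 cells, and erythroid-like cells numbered 1903 and 166. The summed level of the 9 macrophage markers in RPM-like cells was 23395 and 20682 CPM, against 2583 and 1781 CPM in the main cluster of B lymphocyte-like cells, and none of the 9 was at 0 in either. F4/80 itself (Adgre1) was the target of the beads.

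In mouse build GRCm38 with the GENCODE M21 annotation, all 6 genes are protein-coding. Hmox1 lies at chr8:75093621-75100589, Blvra at chr2:127070665-127097084, Blvrb at chr7:27447978-27466144 and Abcg2 at chr6:58584523-58695676, each on the plus strand and without an overlapping gene. Slc48a1 at chr15:97778520-97792692 on the plus strand shares its last 29 bases with the opposite gene Hdac7. Flvcr1 at chr1:191005847-191026158 on the minus strand shares 809 bases at its 5′ end with the opposite gene A230020J21Rik, and whether reads were counted by strand is not given in the sources used here.

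Promoter windows of RefSeq (GRCm38.p6) were at hand for Blvra, Blvrb, Flvcr1 and Abcg2. They were searched on both strands for TGACNNNGC, the core of the antioxidant response element that NRF2 binds, and for AGATAA, a site of GATA factors. The 250 bases before the start site are shown for Blvra and Flvcr1, since these were the members with a match and since their levels differed between the libraries in opposite directions (−0.42 and 1.52 on the log2 scale in RPM-like cells). Capitals mark the antioxidant response element core, which lies on the opposite strand in Blvra and on the printed strand in Flvcr1.
Blvra (chr2:127070407-127070656, plus strand): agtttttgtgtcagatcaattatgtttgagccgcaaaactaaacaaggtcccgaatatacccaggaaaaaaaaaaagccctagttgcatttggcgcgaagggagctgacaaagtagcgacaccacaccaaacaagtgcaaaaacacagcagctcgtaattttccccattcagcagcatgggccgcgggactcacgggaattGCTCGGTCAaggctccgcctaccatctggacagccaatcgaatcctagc
Flvcr1 (chr1:191026191-191026440, minus strand): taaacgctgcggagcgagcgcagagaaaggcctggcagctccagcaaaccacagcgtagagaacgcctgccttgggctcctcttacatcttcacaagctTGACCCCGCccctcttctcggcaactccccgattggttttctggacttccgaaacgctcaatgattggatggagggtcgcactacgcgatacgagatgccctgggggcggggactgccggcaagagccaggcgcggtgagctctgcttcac
The match ended 40 bases before the start of Blvra and 142 bases before that of Flvcr1. Windows of 300 bases that held TGACNNNGC made up 12.4% of 32851 RefSeq promoters, and those with AGATAA 11.2%. The windows of Blvrb and Abcg2 held neither. A match describes the letters only.

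**Figure D1:**
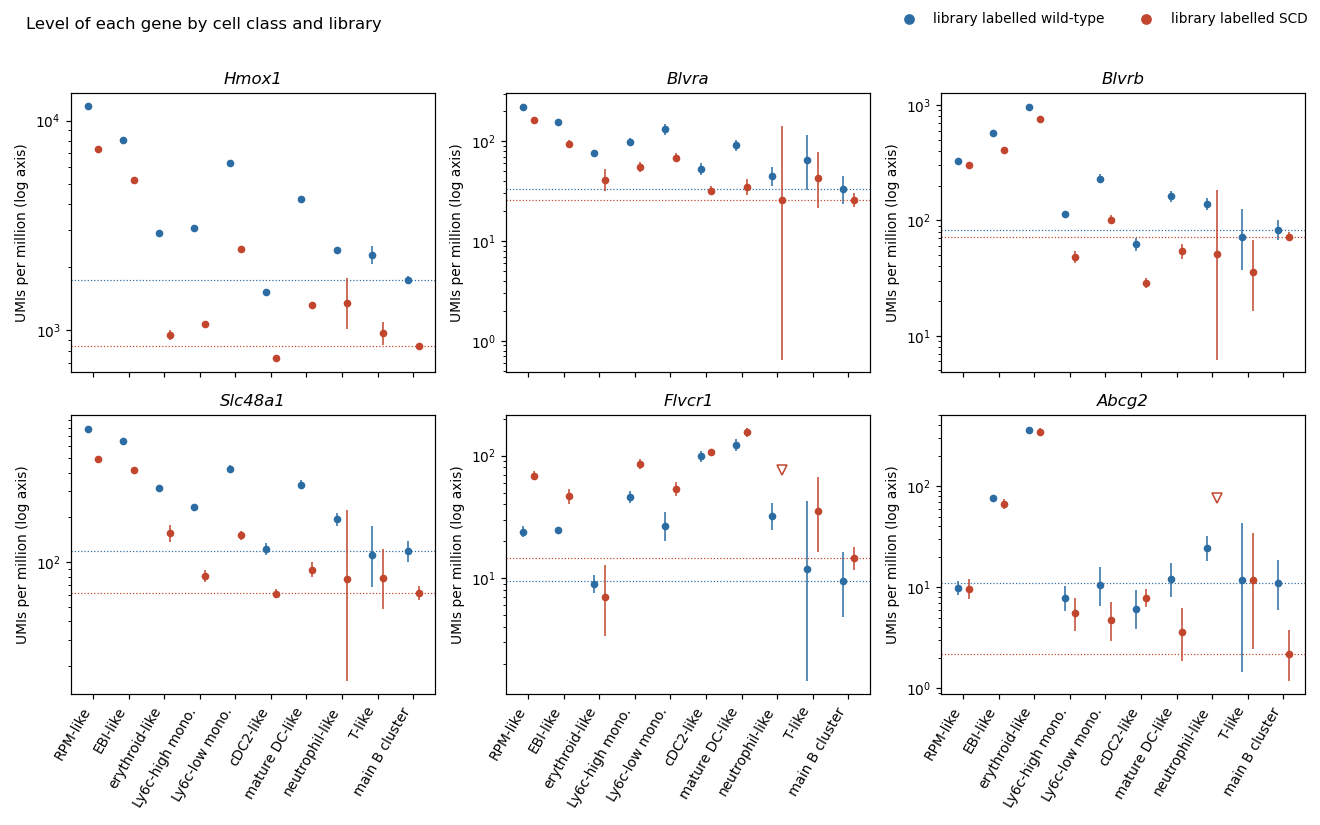
Level of each gene in CPM (log axis) by cell class in the libraries labelled wild-type (blue) and SCD (red), with 95% exact Poisson intervals of the summed UMIs. Dotted lines mark the main B cluster of the same library, and open triangles the limit of 3 UMIs where none was found (14 neutrophil-like cells of the SCD-labelled library). Hmox1, Blvra and Slc48a1 peak in RPM-like cells at 11690, 218 and 786 CPM in the wild-type-labelled library, Blvrb and Abcg2 in erythroid-like cells, and Flvcr1 in mature DC-like cells.

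Hmox1 was highest in the macrophages of both libraries, and it was the wild-type-labelled library that had the higher level in each class. RPM-like cells of the wild-type-labelled library held 11690 CPM (95% exact Poisson interval of the UMIs, counting error only, 11638 to 11742). Those of the SCD-labelled library held 7358 CPM (7297 to 7420). EBI-like cells followed at 8089 and 5233 CPM. Ly6c-low monocyte-like cells held 6251 and 2429 CPM, mature DC-like cells 4249 and 1322 CPM, and Ly6c-high monocyte-like cells 3091 and 1075 CPM. The order from RPM-like to EBI-like to Ly6c-low monocyte-like cells was the same in both libraries, with intervals that did not overlap within a library.

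Hmox1 UMIs were also found in lymphocytes, and the level in the main B cluster was taken as the free-RNA reference. Whether free RNA reaches higher levels in other cells was not tested. T lymphocyte-like cells held 2288 and 965 CPM, 1.31 times (1.18 to 1.47) and 1.15 times (1.01 to 1.31) the level of the main B cluster. Barcodes with under 500 genes, outside the kept cells, held 5404 and 2075 CPM. The main B cluster held 1740 CPM (1669 to 1814) in the wild-type-labelled library and 841 CPM (817 to 864) in the SCD-labelled library. Over this level, RPM-like cells were 6.72 times (95% exact interval of the ratio 6.44 to 7.01) and 8.75 times (8.504 to 9.01) higher. cDC2-like cells, a class of conventional dendritic cells, were at 0.874 and 0.879 times the B level, so their Hmox1 reads as background. In Ly6c-low monocyte-like cells Hmox1 was 3.59 and 2.89 times, and in mature DC-like cells 2.44 and 1.57 times, the B level. The summed macrophage markers moved with it, at 9867 and 5392 CPM in the Ly6c-low monocyte-like and 8453 and 3092 CPM in the mature DC-like cells, none of the 9 at 0, and their part in the Hmox1 level was not tested.

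Shares of cells with an Hmox1 UMI were compared after each cell had been thinned to 1000 UMIs, which left out 675 of 4631 and 144 of 1636 RPM-like cells with fewer. Hmox1 was then found in 99.8% and 97.5% of RPM-like cells, and in 67.5% and 44.3% of cells of the main B cluster. Without thinning the shares were close to 100% in RPM-like cells of both libraries (99.957% and 99.1%), whose median depths were 2129 and 4096 UMIs, and 86.7% and 72.0% in the main B cluster at median depths of 2139 and 2895 UMIs. The share with a UMI therefore separates macrophages from B cells less well than the level does. Thinned RPM-like cells held a median of 12 Hmox1 UMIs (5th to 95th percentile 5 to 21) in the wild-type-labelled library and 7 (1 to 15) in the SCD-labelled library, against 1 and 0 in the main B cluster. The variance over the mean was 1.962 and 2.33 in RPM-like cells, above the value of 1 that counting alone gives, and 3.06 and 2.99 in EBI-like cells.

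**Figure D2:**
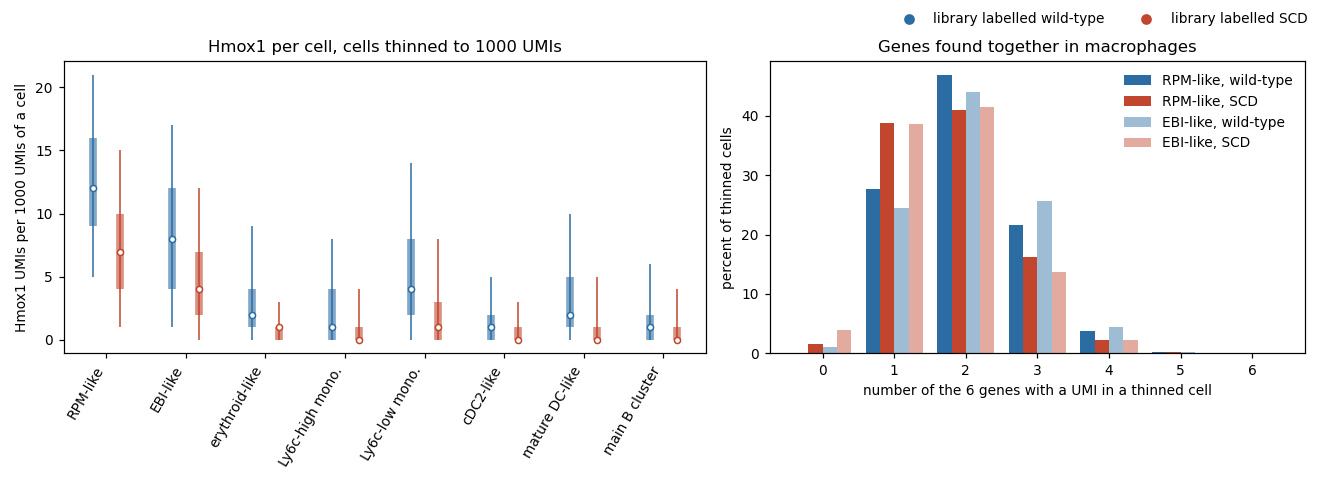
Left, Hmox1 UMIs per cell after thinning to 1000 UMIs by class (circle median, thick bar 25th to 75th, thin line 5th to 95th percentile of cells). Right, percent of thinned macrophages (full colour RPM-like, pale EBI-like) by how many of the 6 genes had a UMI. RPM-like cells have medians of 12 and 7 Hmox1 UMIs in the wild-type-labelled and SCD-labelled libraries, and in each of the 4 groups 2 genes were found most often (40.95% to 46.8% of cells).

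Slc48a1, the transporter that passes heme out of the phagolysosome, followed Hmox1 from class to class. RPM-like cells held 786 CPM (773 to 800) in the wild-type-labelled library and 490 CPM (474 to 506) in the SCD-labelled library, which was 6.64 times (5.66 to 7.85) and 7.89 times (7.09 to 8.81) the level of the main B cluster. EBI-like cells held 646 and 414 CPM. cDC2-like cells, at 123 and 61.4 CPM, were at 1.04 and 0.9897 times the B level and could not be told apart from it. In thinned cells Slc48a1 was found in 53.2% and 35.5% of RPM-like cells and in 8.47% and 4.96% of the main B cluster. Without thinning it was found in 75.7% and 72.3% of RPM-like cells and in 21.3% and 16.2% of the main B cluster.

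Per 100 UMIs of Hmox1, Slc48a1 gave nearly the same value in most classes. In RPM-like cells it was 6.73 (6.61 to 6.85) and 6.66 (6.44 to 6.88), and in the main B cluster 6.80 (5.73 to 8.03) and 7.38 (6.62 to 8.21). EBI-like, monocyte-like and DC-like cells of both libraries lay between 6.22 and 8.32. Erythroid-like cells stood apart at 10.8 (10.5 to 11.1) and 16.5 (14.2 to 19.0). The macrophage adhesion molecule Vcam1 was less even, with 72.7 and 111 UMIs per 100 of Hmox1 in RPM-like cells and 54.0 and 78.6 in the main B cluster. Free RNA of 1 source keeps its genes in 1 ratio in every class, and how much of Slc48a1 outside macrophages is free RNA was not tested beyond these ratios.

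**Figure D3:**
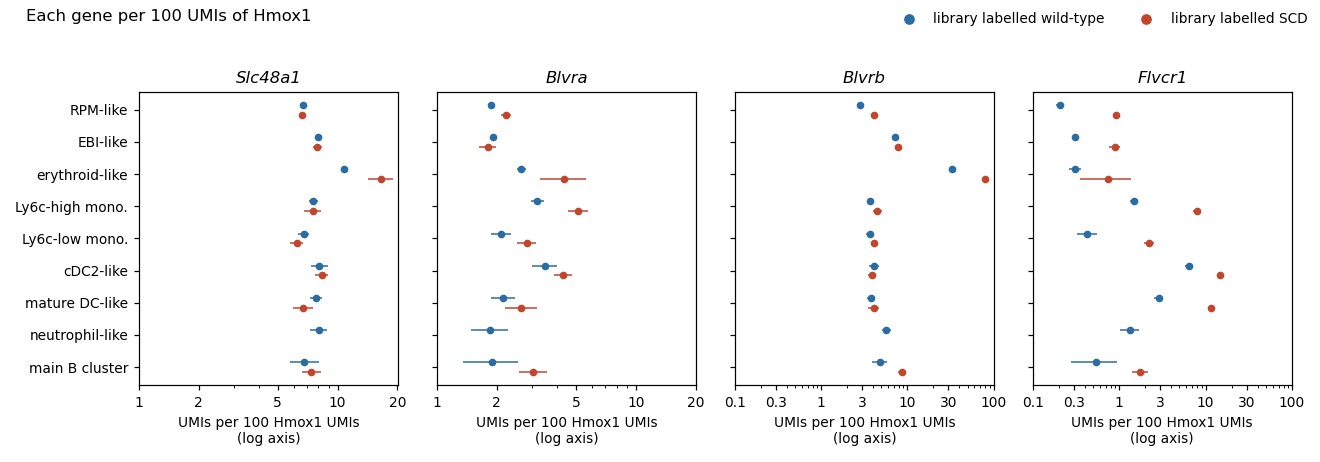
UMIs of Slc48a1, Blvra, Blvrb and Flvcr1 per 100 UMIs of Hmox1 (log axis) by class and library, with 95% exact intervals; classes with under 100 Hmox1 UMIs are not drawn. Slc48a1 lies between 6.22 and 8.32 in macrophages, monocyte-like and DC-like cells, whereas Blvrb reaches 33.2 and 78.7 in erythroid-like cells and Flvcr1 6.48 and 14.6 in cDC2-like cells.

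The reductases of biliverdin differed in where they were found. Blvra was highest in RPM-like cells, at 218 CPM (211 to 226) in the wild-type-labelled library and 163 CPM (154 to 173) in the SCD-labelled library, which was 6.63 and 6.37 times the B level. EBI-like cells held 155 and 94.0 CPM. Ly6c-high monocyte-like cells held 98.9 and 55.1 CPM of Blvra, or 3.2 (2.96 to 3.46) and 5.13 (4.55 to 5.76) UMIs per 100 of Hmox1. In the main B cluster this ratio was 1.89 (1.36 to 2.57) and 3.05 (2.58 to 3.58), so the intervals of monocyte-like and B cells did not overlap in either library. The same held for cDC2-like cells, with 3.49 (3.002 to 4.03) and 4.32 (3.89 to 4.78).

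Blvrb, which reduces biliverdin isomers and flavins and is abundant in erythrocytes, was highest in erythroid-like cells. There it stood at 964 CPM (949 to 979) in the wild-type-labelled library and 750 CPM (705 to 796) in the SCD-labelled library, or 11.6 and 10.4 times the B level. EBI-like cells held 576 and 409 CPM and RPM-like cells 329 and 304 CPM, and no interval overlapped the next in this order. The summed erythroid markers moved with it, at 21629 and 24484 CPM in erythroid-like, 7880 and 8826 CPM in EBI-like and 575 and 150 CPM in those of RPM, none of the 12 at 0. In RPM-like cells Blvrb was still 3.96 times (3.27 to 4.85) and 4.197 times (3.78 to 4.66) the B level. Summed erythroid markers of the main B cluster were at 543 and 92.9 CPM, near those of RPM-like cells in the wild-type-labelled library and below them in the other. In cDC2-like cells Blvrb was below the B level in both libraries, at 0.749 and 0.396 times.

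Blvrb was also taken for single EBI-like clusters. It was at 889 CPM in the cluster led by Xpo7 and Tmcc2 and 954 CPM in the cluster led by Oas1e and Slfn14 in the wild-type-labelled library. The cluster led by Xpo7 and Tmcc2 held cells of both libraries (1296 and 156) and had 889 and 835 CPM. Most EBI-like cells of the SCD-labelled library (625 of 970) formed a cluster led by Hbb-bs and Hbb-bt with 295 CPM.

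Flvcr1 had another pattern from the rest, with its highest level in dendritic cells. Mature DC-like cells held 122 CPM (108 to 137) in the wild-type-labelled library and 155 CPM (142 to 169) in the SCD-labelled library, or 12.99 and 10.6 times the B level. cDC2-like cells held 98.5 and 108 CPM, and Ly6c-high monocyte-like cells 45.9 and 84.9 CPM. In RPM-like cells there were 24.0 CPM (21.7 to 26.5) and 68.7 CPM (62.9 to 74.8), from 397 and 519 UMIs, which was 2.55 times (1.44 to 4.98) and 4.68 times (3.72 to 5.94) the B level. RPM-like, EBI-like and Ly6c-low monocyte-like cells of the wild-type-labelled library, at 24.0, 24.7 and 26.7 CPM, did not differ beyond their intervals. Erythroid-like cells held 8.99 and 7.01 CPM, from 145 and 10 UMIs. This was 0.955 and 0.478 times the B level, so Flvcr1 was not detectable over background there. After thinning, 2.25% and 6.23% of RPM-like cells and 13.6% and 14.6% of mature DC-like cells had a Flvcr1 UMI, against 1.21% and 1.46% of the main B cluster. Without thinning the shares were 7.45% and 23.5% of RPM-like cells, 35.8% and 42.9% of mature DC-like cells and 2.39% and 4.45% of the main B cluster.

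Abcg2 was highest in erythroid-like cells, followed by EBI-like cells. It stood in the former at 360 CPM (351 to 369) in the wild-type-labelled library and 346 CPM (316 to 378) in the SCD-labelled library, 32.8 and 158 times the B level of 11.0 and 2.19 CPM, which rested on 14 and 13 UMIs. EBI-like cells held 75.5 and 66.9 CPM. RPM-like cells held 9.80 CPM (8.35 to 11.4) and 9.66 CPM (7.57 to 12.1). In the wild-type-labelled library this was 0.892 times the B level (0.517 to 1.67), and in the SCD-labelled library 4.41 times (2.42 to 8.67). Summed erythroid markers in RPM-like cells were likewise near the B level in the former (575 against 543 CPM) and above it in the latter (150 against 92.9 CPM), and their part in the Abcg2 level was not tested. In the wild-type-labelled library 62.6% of all Abcg2 UMIs lay in erythroid-like cells, which held 15.04% of all UMIs, and 31.6% in EBI-like cells.

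Of the 6 genes, 5 were above the B level in RPM-like cells of the wild-type-labelled library and all 6 in the SCD-labelled library, with the interval of the ratio above 1. By the same rule 30.3% of 9459 and 35.2% of 9490 genes with at least 100 UMIs in the compared cells were above it. Abcg2 is not among the latter, with 73 UMIs in RPM-like cells and 13 in the main B cluster of the SCD-labelled library. Against T lymphocyte-like cells (60 and 93 cells) the counts of the 6 genes were 4 and 5. The share of all genes above the T level was not taken, so these counts have no background. Barcodes with under 500 genes were another reference. In the wild-type-labelled library RPM-like cells were below it for Blvrb (329 against 1047 CPM) and Abcg2 (9.80 against 61.6 CPM). In the SCD-labelled library they were not, at 304 against 228 CPM and 9.66 against 5.79 CPM, the last from 9 UMIs.

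Across the 19 groups of class and library, the levels of Hmox1 and Slc48a1 correlated with Pearson's r = 0.96 on the log2(CPM + 1) scale, and Hmox1 and Blvra with r = 0.95. Blvrb and Abcg2 had r = 0.80, Flvcr1 and Abcg2 r = −0.66, and Hmox1 and Flvcr1 r = −0.13. The groups share their libraries, and macrophage RNA that is free in the suspension adds to all of them. Of 13015 genes, those nearest to Hmox1 were the macrophage genes Clec4n (r = 0.99), Igf1 and Fcna. Nearest to Abcg2 were Glrx5 (r = 0.98), a glutaredoxin needed for iron-sulfur clusters, Cpox, an enzyme of heme synthesis, and Prdx2. Nearest to Blvrb were Abcb4, Gclm and Itsn1, to Slc48a1 Cela1, Prxl2b and C1qb, to Blvra Tmem65, Lgals3bp and Tpp1, and to Flvcr1 Rp2, Pik3r5 and Erlin1 (r = 0.93 to 0.94 for the last 3).

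The libraries were then compared, first over all kept cells. On the log2 scale, as the level in the SCD-labelled library over that in the wild-type-labelled library, Hmox1 was at −1.39 (2446 against 6409 CPM), Slc48a1 at −1.50 (176 against 497 CPM), Blvra at −1.04 (64.4 against 132 CPM), Blvrb at −1.75 (135 against 456 CPM) and Abcg2 at −2.23 (18.4 against 86.5 CPM). Flvcr1 alone was higher, by 1.25 (75.3 against 31.7 CPM). Thus 5 of 6 genes were lower by over 2 times and 1 was higher by over 2 times, while among 13015 genes with at least 100 UMIs 9.76% were lower and 12% higher by that much. By the interval of the ratio the counts were again 5 and 1, against 32.1% and 54.8% of all genes. The median of the 6 genes was −1.44 and that of all genes 0.18.

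The libraries held different mixtures of cells, and the whole-library differences moved with them. RPM-like and EBI-like cells together made up 58.2% of kept cells in the wild-type-labelled library and 21.2% in the SCD-labelled library, and erythroid-like cells 9.80% and 1.35%. When the class levels of the SCD-labelled library were weighted by the class shares of UMIs of the wild-type-labelled library, Abcg2 came to −0.11 and Blvrb to −0.45 on the log2 scale. Hmox1 and Slc48a1 then came to −0.77 and −0.78, Blvra to −0.67 and Flvcr1 to 0.79. At equal class shares Abcg2 and Blvrb thus differed far less than over whole libraries, and the direction of each of the 6 genes was kept.

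**Figure D4:**
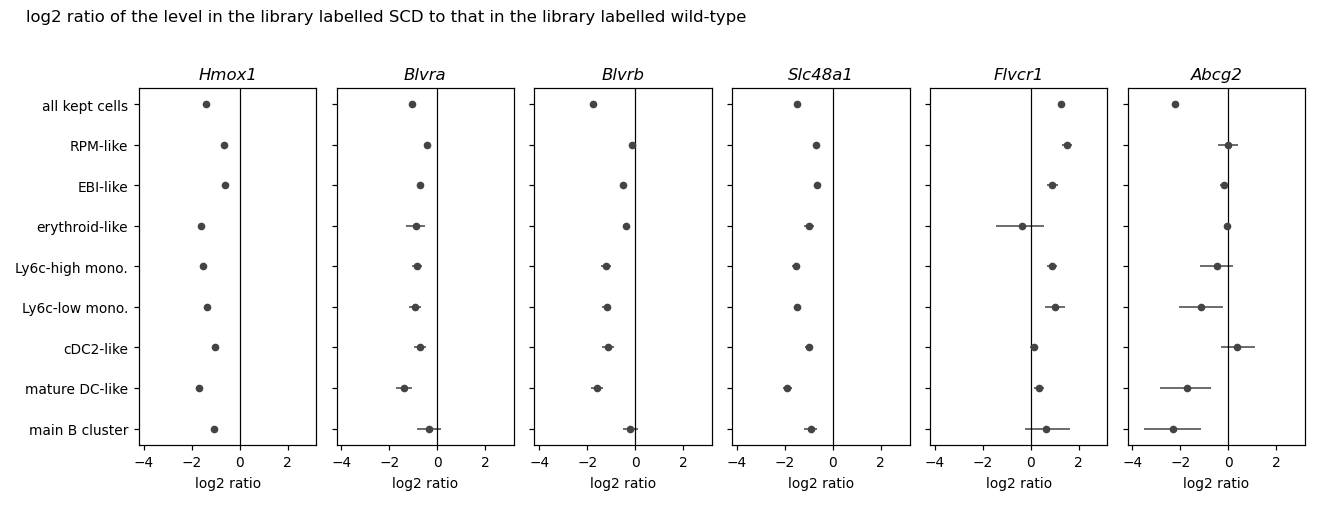
log2 ratio of the level in the SCD-labelled library to that in the wild-type-labelled library for each gene, over all kept cells and by class, with 95% exact intervals of the UMIs; values left of 0 are lower in the SCD-labelled library. The points of Hmox1 and Slc48a1 lie left of 0 in each row drawn, main B cluster included, and Flvcr1 lies right of 0 in RPM-like (1.52) and EBI-like cells (0.91).

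Within RPM-like cells Hmox1 differed by −0.67 (95% exact interval −0.68 to −0.65), Slc48a1 by −0.68 (−0.74 to −0.63), Blvra by −0.42 (−0.51 to −0.33) and Blvrb by −0.12 (−0.19 to −0.05) on the log2 scale. Flvcr1 was higher by 1.52 (1.32 to 1.71), and Abcg2, near background, differed by −0.02 (−0.44 to 0.39). So 4 genes were lower and 1 higher by the interval of the ratio, against 22.4% and 47% of 9969 genes. None of the 6 was lower by over 2 times, against 4.13% of genes, and 1 (Flvcr1) was higher by over 2 times, against 9.16%. The median of the 6 was −0.27 and that of all genes 0.20. The libraries fell into different RPM-like clusters. Of the 4631 RPM-like cells of the wild-type-labelled library 3560 were in a cluster led by Marco and Lox and 1036 in one led by Adam33 and Gm37697, while 1562 of the 1636 of the SCD-labelled library were in a cluster led by Rgs1 and Adamdec1, so cluster and library cannot be told apart.

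Hmox1 stood at 13526 CPM in the cluster led by Marco and Lox, 9939 CPM in that led by Adam33 and Gm37697 and 7364 CPM in that led by Rgs1 and Adamdec1, each in the library that held most of it. Within the cluster led by Marco and Lox, 63 cells of the SCD-labelled library had 7172 CPM of Hmox1 (6584 to 7798) and 275 CPM of Slc48a1 (170 to 420), against 13526 and 809 CPM in the wild-type-labelled library. Flvcr1 in that cluster was at 20.4 CPM (17.4 to 23.7) and 78.5 CPM (28.8 to 171), the latter from 6 UMIs. The direction was thus the same in this shared cluster for these 3 genes.

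The lower level of Hmox1 in the SCD-labelled library was also present where Hmox1 reads as background. In the main B cluster it differed by −1.05 (−1.12 to −0.98) and in cDC2-like cells by −1.04. In erythroid-like cells, where Hmox1 was 1.67 and 1.13 times the B level, it differed by −1.61. Summed macrophage markers of the main B cluster were also lower in the SCD-labelled library, at 1781 against 2583 CPM, but by less than Hmox1. Vcam1 in the main B cluster was at 54.0 and 78.6 UMIs per 100 of Hmox1 in the wild-type-labelled and SCD-labelled libraries. With the B level of each library subtracted, Hmox1 in RPM-like cells differed by −0.61 and Flvcr1 by 1.89.

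Within EBI-like cells the same 4 genes were lower and Flvcr1 higher. Hmox1 differed by −0.63, Slc48a1 by −0.64, Blvra by −0.72 and Blvrb by −0.50, and Flvcr1 was higher by 0.91 (0.69 to 1.13). Abcg2 differed by −0.17 (−0.35 to 0.00085). By the interval 4 were lower and 1 higher, against 31.4% and 20% of 10955 genes. Without the 2 EBI-like clusters in which over 30% of cells were marked as doublets, Flvcr1 was higher by 1.44. Abcg2 in EBI-like cells ranged from −2.90 to 0.01 over the other settings, with −2.86 when each library was clustered on its own, so its difference there rests on which clusters count as EBI-like. The libraries fell into different EBI-like clusters, and 3 clusters held over 50 cells of both. In the cluster led by Xpo7 and Tmcc2, Abcg2 was at 146 CPM (137 to 156) in the wild-type-labelled library and 233 CPM (195 to 276) in the SCD-labelled one. In that led by Slfn14 and Dyrk3 it was at 39.1 CPM (34.7 to 43.9) and 85.0 CPM (61.5 to 115), and in that led by Mt2 and Atp1b2 at 157 CPM (149 to 166) and 161 CPM (130 to 198). Abcg2 was thus higher in the SCD-labelled library in 2 of these 3 clusters and not distinguishable in the third. The clusters led by Slfn14 and Dyrk3 and by Mt2 and Atp1b2 were the 2 left out above for their doublets. In the former 61.4% and 69.1% of cells were marked, in the latter 38.0% and 67.5%. In the cluster led by Xpo7 and Tmcc2, where Abcg2 was higher, 3.55% and 5.77% were marked. Over the other settings Blvrb in EBI-like cells ranged from −1.59 to −0.36, Slc48a1 from −1.15 to −0.51, Blvra from −1.04 to −0.59 and Hmox1 from −1.04 to −0.50. Flvcr1 ranged from 1.04 to 1.71, above the value given here under each of them. In the 3 clusters with over 50 cells of both libraries, however, its intervals overlapped between the libraries. It was at 13.5 CPM (10.8 to 16.7) and 15.9 CPM (7.26 to 30.1) in that led by Xpo7 and Tmcc2. In that led by Slfn14 and Dyrk3 it was at 50.5 CPM (45.5 to 55.8) and 67.2 CPM (46.6 to 93.9). In that led by Mt2 and Atp1b2 it was at 23.4 CPM (20.3 to 26.8) and 33.7 CPM (20.3 to 52.6).

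In erythroid-like cells, which formed 1 cluster for both libraries, Abcg2 differed least. It differed by −0.06 (−0.19 to 0.08) and Blvrb, the other gene highest in that class, by −0.36 (−0.45 to −0.27). Flvcr1, at background, differed by −0.36 (−1.45 to 0.56). Flvcr1 was higher in the SCD-labelled library in Ly6c-high monocyte-like (0.89, 0.67 to 1.10), Ly6c-low monocyte-like (1.01, 0.59 to 1.45) and mature DC-like cells (0.34, 0.13 to 0.56). In cDC2-like cells it differed by 0.13 (−0.04 to 0.30).

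Whether the genes were found in the same macrophages was asked next, by setting the number of thinned cells with UMIs of both genes against the product of their shares within each cluster. In RPM-like cells none of the 15 pairs was above or below that product in either library, by the binomial interval of the observed share. The product came from the shares of the same cells and was held fixed. This makes the interval wider than the error of the comparison. An interval that reaches the product therefore does not show that the genes of a pair are independent. For Blvrb and Slc48a1, 14.6% of 3956 cells of the wild-type-labelled library had both, 1.03 times the product (0.95 to 1.11), and 9.38% of 1492 cells of the SCD-labelled library, 1.09 times (0.92 to 1.27). For Blvra and Slc48a1 the ratios were 1.01 (0.92 to 1.11) and 1.04 (0.83 to 1.28), and for Blvra and Blvrb 1.11 (0.97 to 1.27) and 1.06 (0.81 to 1.37). Pairs with Hmox1 could hardly differ from the product, since nearly every cell held it. Pairs with Abcg2 rested on at most 40 cells, or 18 without Hmox1, and their intervals were wide. Without thinning, 6 of 15 pairs were above the product in each library.

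**Figure D5:**
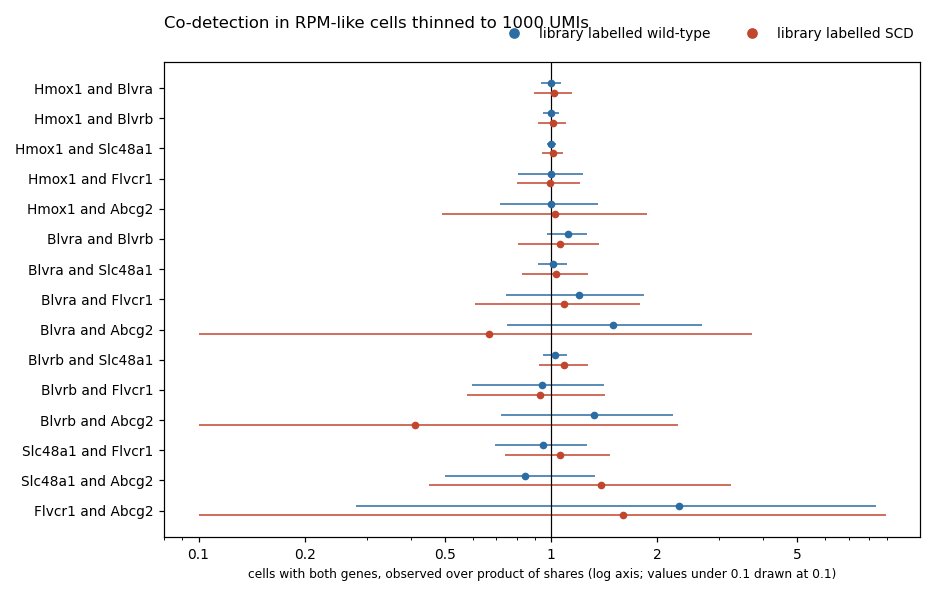
Cells with both genes of a pair, as the observed number over the product of the shares within clusters (log axis), in RPM-like cells thinned to 1000 UMIs; lines are 95% exact binomial intervals of the observed share. With the product held fixed, the interval of each of the 15 pairs includes 1 in both libraries, for example Blvrb and Slc48a1 at 1.03 and 1.09.

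The level of Hmox1 in RPM-like cells was about the same whether or not a second gene was found. Thinned cells with a Slc48a1 UMI held a mean of 12.9 ± 4.99 Hmox1 UMIs (SD over 2106 cells) and those without 12.8 ± 5.05 (1850 cells) in the wild-type-labelled library, and 7.81 ± 4.02 (530 cells) and 7.24 ± 4.24 (962 cells) in the SCD-labelled library. These SDs are over cells of 1 mouse. Here and below, the means were taken over the whole class and not within clusters, so differences between clusters enter them. In EBI-like cells, Hmox1 was lower where Abcg2 was found, at 5.96 ± 4.45 (418 cells) against 8.45 ± 5.03 UMIs (5996 cells) in the wild-type-labelled library and 3.31 ± 3.38 (59 cells) against 5.10 ± 3.87 UMIs (901 cells) in the SCD-labelled library. It was higher where Blvra was found, at 9.33 ± 4.78 (805 cells) against 8.14 ± 5.05 UMIs (5609 cells) and 6.80 ± 3.67 (75 cells) against 4.84 ± 3.85 UMIs (885 cells). Within clusters, Blvra and Abcg2 were found together in 30 EBI-like cells of the wild-type-labelled library, 0.65 times the product (0.44 to 0.93), the 1 pair of 15 whose interval left out 1. In the SCD-labelled library, with 3 such cells, it was 1.06 times (0.22 to 3.09) and no pair left out 1. Of thinned RPM-like cells 25.4% and 18.6% held 3 or more of the 6 genes, against 0.806% and 0.992% of the main B cluster. The shares were 30.3% and 15.8% in EBI-like cells and, higher than in RPM-like cells of both libraries, 32.0% and 21.1% in erythroid-like cells.

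Of 22 other genes of heme uptake, synthesis, breakdown and iron handling, 19 reached 100 UMIs in RPM-like cells. Their intervals lay below 0 for 9 genes and above 0 for 6, against 22.4% and 47% of all genes in RPM-like cells. Their median was −0.22 on the log2 scale and that of all genes 0.20. The lowest were Por, the reductase that feeds electrons to heme oxygenase, at −1.16 (204 against 458 CPM), the ferritin chains Fth1 at −1.08 and Ftl1 at −1.03, and Abcb6, a porphyrin transporter, at −0.74. The highest were Cd163, the receptor for haptoglobin-hemoglobin, at 0.91 (281 against 150 CPM), Alas1, the first enzyme of heme synthesis, at 0.80, Spic, a transcription factor of red pulp macrophages, at 0.71 and Slc11a1, a metal transporter of the phagosome, at 0.43. Slc40a1, which encodes the iron exporter ferroportin, was at 0.18 (7395 against 6537 CPM). By over 2 times 3 genes were lower and 0 higher, against 4.13% and 9.16% of all genes.

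Of 9 target genes of NRF2, the transcription factor that also induces Hmox1, 8 reached 100 UMIs in RPM-like cells, and the intervals of 7 lay below 0 and of 0 above it, against 22.4% and 47% of all genes there. Their median was −0.69 and that of all genes 0.20, and 2 were lower by over 2 times, against 4.13% of genes. They ranged from the cystine transporter Slc7a11 at −1.11 and catalase (Cat) at −1.01 to the thioredoxin reductase Txnrd1 and the glutamate-cysteine ligase subunit Gclc, at −0.34 and −0.33. Srxn1 was at −0.74, Gclm at −0.73 and Prdx1 at −0.65. Gsr, glutathione reductase, differed by 0.03 (−0.06 to 0.12). Some of these genes are named in the study for cultured cells, so the list is not independent of it.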

How the data were processed

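Unnormalised UMI counts for each gene in each barcode were deposited by the authors for 2 droplet libraries (3′ v3.1 chemistry), after alignment and cell calling. The processing notes name Cell Ranger 4.0.0 and build GRCm38.p6, and the matrix headers 3.1.0. The study's filters were applied to the counts: 500 to 5000 genes a cell, with mitochondrial UMIs below 15% and those of ribosomal proteins below 30%. Clusters came from scran 1.30.0 size factors (R 4.3.3), 2000 variable genes without the members, the heme and iron genes that the study names, globins and sex-linked genes, 30 components, 15 neighbours and the Leiden algorithm at resolution 1 (scanpy 1.11.5, Python 3.11.15, python-igraph 0.11.9). RPM-like and EBI-like clusters had macrophage markers at a median of at least 4 times the main B cluster's level, and EBI-like clusters also erythroid markers at 2 times. Doublets were scored and left in; the automatic limit marked 0 cells of the wild-type-labelled library, where the highest-scoring 10% and ties were marked instead, and 1727 of the SCD-labelled library, so shares of doublets are not comparable between libraries. Levels are CPM of UMIs summed over cells. With 1 mouse per group no test was run. Intervals are 95%, exact Poisson for UMIs, exact conditional for ratios, exact binomial for shares, and cover counting error only. Ratios over all genes needed 100 UMIs. Scripts were tested on simulated data. The members, lists, markers and limits were chosen with earlier results of these data known. The text names all 6 members, the 4 largest and 4 smallest log2 ratios of each list in RPM-like cells, the 3 genes nearest to each member over classes with at least 20 cells, and 2 leading genes of each cluster described; Slc40a1 was added after its value was seen. Alternatives are given as ranges or where they moved a result. All columns of the matrices belonged to these 2 libraries.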

Additional observations from a re-analysis of the deposited data

How the results depend on the processing

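Each library is 1 mouse, so no replicate could be left out and no spread between mice can be given. No paired analysis was possible because each group has 1 sample. The 9 summary results were recomputed under other filters, doublet removal, clusterings, scalings, free-RNA references and thinning depths, and 85 of 93 values stayed within 1.5 times a count or within the counting interval of a median. The median log2 ratio of the 6 genes over all kept cells, −1.44, came to −1.51 with doublets removed, −1.57 as a mean of shares per cell, −1.63 with the B level subtracted and −0.56 at the class shares of the wild-type-labelled library. In RPM-like cells, −0.27 came to −0.52 with each library clustered on its own and −0.81 in the 1 cluster with over 50 cells of both libraries. The pairs found above the product of shares, 0, came to 6 in both libraries without thinning; the cause was not tested. The weighting by class shares, the single shared cluster and the removal of EBI-like clusters rich in doublets were chosen after the data had been seen. Of 196 values of single genes, 85 moved beyond their counting interval. No member with an interval clear of 0 changed direction under any setting. In RPM-like cells Hmox1 ranged from −0.92 to −0.60, Slc48a1 from −1.56 to −0.64, Blvra from −0.65 to −0.26, Blvrb from −0.81 to −0.09 and Flvcr1 from 0.997 to 1.95. Abcg2 in RPM-like cells, from −0.38 to 0.07, and Flvcr1 in erythroid-like cells rest on few UMIs.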

Other observations

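Barcodes with under 500 genes numbered 1008 in the wild-type-labelled library and 1750 in the SCD-labelled one. They were left out of the cell classes. Among the alternatives they served as another free-RNA reference. Those with at least 200 genes that passed the other filters also entered the alternative with that minimum. Their Hmox1 was at 5404 and 2075 CPM, 3.11 and 2.47 times the level of the main B cluster. Slc48a1 was at 573 and 340 CPM, 4.84 and 5.48 times that level. Summed macrophage markers were at 7965 and 3493 CPM, against 2583 and 1781 CPM in the main B cluster. Blvrb reached 1047 CPM (979 to 1118) in the wild-type-labelled library, above its erythroid-like cells (964 CPM, 949 to 979), and 228 CPM in the other. Summed erythroid markers were at 21479 and 13699 CPM. Abcg2 was at 61.6 and 5.79 CPM, below the 360 and 346 CPM of erythroid-like cells. Flvcr1 was at 10.7 and 13.5 CPM, 1.13 (0.421 to 2.93) and 0.921 (0.543 to 1.496) times the level of the main B cluster.

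Clusters that took no name held 2396 and 2298 cells, of which 19.8% and 40.3% were marked as doublets, by a fixed share of cells in the former library and an automatic limit in the latter. In them Hmox1 was at 4431 and 2357 CPM, Slc48a1 at 346 and 171 CPM, Blvra at 105 and 63.4 CPM and Flvcr1 at 46.9 and 79.9 CPM, between the levels of RPM-like cells and the main B cluster for the first 3 genes. The cluster led by Ifitm1 and Slc8a2 (780 and 277 cells) met the limits of RPM-like clusters before the rule on leading genes. That led by Iglc2 and Iglc1 (527 and 308 cells) met those of EBI-like clusters. The counts and shares of RPM-like and EBI-like cells leave both out.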
